A study of Oryza sativa with 216 samples.

Results

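OsEIL1 is a rice member of the EIN3-like family of transcription factors. The platform annotation pairs it with a probe set that is called the OsEIL1b probe set below, after that annotation only. Its values did not follow the other probe sets of the name, and where its probes hybridise was not tested. The probe set was chosen because its level over the lines had already been seen to be uneven. By the annotation OsEIL1 is 1 gene of the 17905 with a probe set of their own among 57258 non-control probe sets. Flag leaves were collected on the day the panicle emerged from 210 recombinant inbred lines (RILs) of indica rice, made by single-seed descent from a cross of Zhenshan 97 with Minghui 63, and from both parents, all untreated and grown in the field. Each RIL had 1 array, hybridised with an equal mixture of RNA from its plantings, so the replicate error of a RIL value was not measured, whereas Minghui 63 and Zhenshan 97 had 3 arrays each, labelled as biological replicates. An inbred line is close to homozygous, so at a given place in the genome it mostly carries the allele of 1 parent. Every value given is a log2 RMA value, in which 1 unit is a doubling of the array signal, and the median of all probe sets on an array was between 5.152 and 5.321 in the RILs, 5.202 and 5.248 in Minghui 63, and 5.147 and 5.241 in Zhenshan 97.

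Ethylene is a gaseous plant hormone that is known for its part in submergence responses, root growth, ripening and leaf senescence. Its receptors keep the pathway off through CTR-type kinases while no ethylene is bound; once it is bound, the membrane protein EIN2 lets EIN3-like factors accumulate, and these bind the promoters of ethylene response factors and other targets. EIN3-like factors are regulated to a large extent through the stability of the protein, which an array of transcripts does not measure.

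The name OsEIL1 covers 2 genes of chromosome 3 that follow each other in the annotated gene order. The platform annotation pairs the probe set under study with LOC4332697, also called OsEIL1b, which is gene 1603 of 4285 on chromosome 3. Gene 1604 is LOC107276358, also called OsEIL1a and MHZ6, which has 2 probe sets of its own. A further 3 probe sets name both of these genes together with LOC4347171 of chromosome 9. The array therefore held 6 probe sets under the name, of which the OsEIL1b probe set alone was paired with OsEIL1b and no other gene. The probe sequences were not used here, so none is printed and the pairing of probe set and gene is that of the annotation.

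The OsEIL1b probe set divided the lines into 2 groups with no line between them. The lines on the Minghui 63 side of 8.2157, the midpoint of the parental means, had values between 3.604 and 6.926 with a median of 4.7445. The lines on the Zhenshan 97 side had values between 9.583 and 12.245 with a median of 11.178. No line fell in the 2.657 units that separated them. Of the 210 lines 49.5% were thus on the Minghui 63 side (exact Clopper-Pearson 95% interval 42.6 to 56.5%) and 50.5% on the Zhenshan 97 side (43.5 to 57.4%), where the intervals cover counting error only.

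The 3 Minghui 63 arrays had 4.581, 4.647 and 4.502 for the OsEIL1b probe set, and the 3 Zhenshan 97 arrays had 12.599, 11.347 and 11.618. Minghui 63 averaged 4.58 ± 0.0726 and Zhenshan 97 averaged 11.85 ± 0.659 (SD, n = 3 each), so that Minghui 63 minus Zhenshan 97 was −7.28. The parents did not overlap, and each group of lines lay around 1 of them. These are the values by which the probe set was chosen, and they are given without a test.

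**Figure D1:**
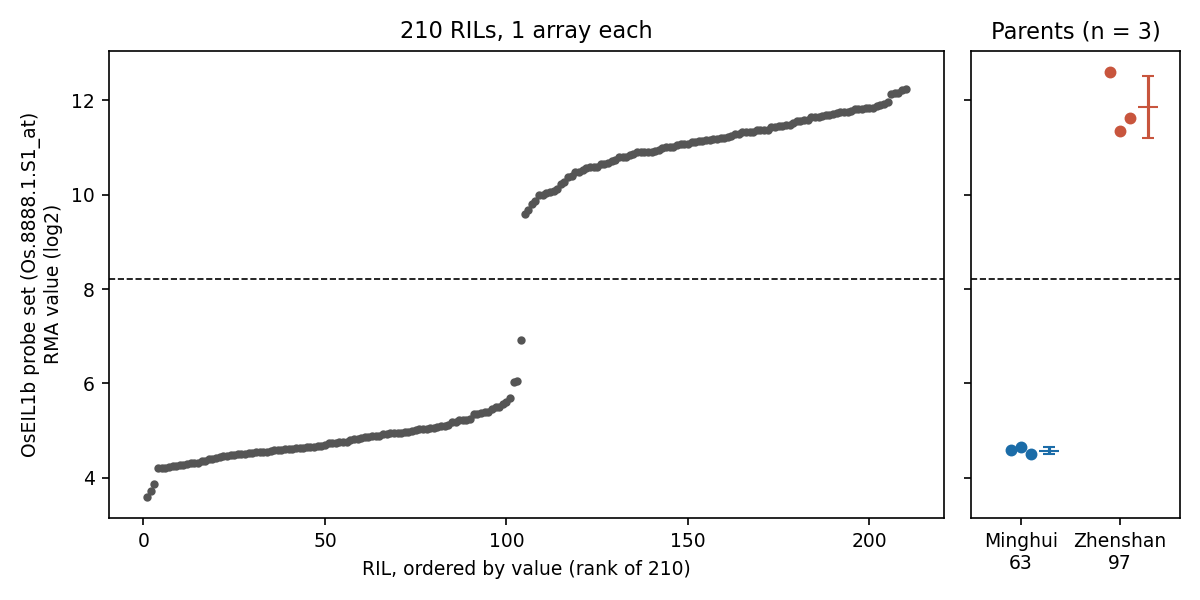
Log2 RMA value of the OsEIL1b probe set in the 210 RILs, ordered by value (left), and in the 3 arrays each of Minghui 63 and Zhenshan 97 (right, points, with mean and SD beside them). The dashed line is the midpoint of the parental means, 8.2157, and no line has a value between 6.926 and 9.583.

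A normal mixture of 2 components was fitted to describe the groups. No line changed side between the mixture and the midpoint. The lower component had a mean of 4.8028 and an SD of 0.4822, and the upper component a mean of 11.135 and an SD of 0.60533.

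The 2 groups did not sit equally close to their parents. On the Minghui 63 side 99 lines (47.1% of all lines) were within 1 unit of the Minghui 63 mean, whereas 76 lines (36.2%) were within 1 unit of the Zhenshan 97 mean. Without Zhenshan 97 replicate 1, the highest of the 3 arrays, 43.3% of the lines were within that distance. Within 0.5 units the counts were 78 and 42 lines, and 35 lines were farther than 1 unit from both means. The lines averaged 0.23 units above the Minghui 63 mean on that side and 0.72 units below the Zhenshan 97 mean on the other (a difference of −0.72). No line exceeded the highest Zhenshan 97 array, and 64 of the lines on that side were below its lowest array. On the Minghui 63 side 25 lines were below the lowest Minghui 63 array and 60 were above the highest. The SD of the lower component was 6.64 times that of the 3 Minghui 63 arrays, which is a small number of arrays for an SD.

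Both groups could also be placed among the other probe sets of each array. In the lines on the Minghui 63 side between 22 and 71.2% of all probe sets had lower values than the OsEIL1b probe set, and in those on the Zhenshan 97 side between 89.7 and 98.7%. The corresponding shares were 36.8 to 40.1% on the Minghui 63 arrays and 97 to 99.1% on the Zhenshan 97 arrays. The signal of the higher group was thus among the strongest on the array. That of the lower group was mostly below the middle of the array, although some lines were above it. The median of that group, 4.7445, was under the lowest array median of the RILs, 5.152. A lower transcript level and a poorer match of the probes to the Minghui 63 allele cannot be told apart on this array, nor can less RNA per cell and fewer cells of a type.

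Such a two-sided pattern was uncommon on the array but not confined to this probe set. The OsEIL1b probe set ranked 13 of 57258 by the size of its parental difference and 22 by its SD over the lines, 3.22. In all, 19 probe sets had a parental difference of 7 or more, 10 of them lower and 9 higher in Minghui 63, and 0.251% had a gap of 2 or more among the middle 170 lines, these limits having been set after the values were seen. By the width of that gap the OsEIL1b probe set ranked 86.

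The other 5 probe sets under the name OsEIL1 did not show the pattern of the OsEIL1b probe set. None of them had 2 clusters of lines by the same definition, and all 5 had a higher mean in Minghui 63 than in Zhenshan 97, whereas the OsEIL1b probe set was lower. Their parental differences, between 0.28 and 0.65, were small beside −7.28.

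Of the probe sets of OsEIL1a alone, the bright OsEIL1a probe set had 13.341, 13.337 and 13.277 in Minghui 63, against 12.973, 13.075 and 12.667 in Zhenshan 97. All Minghui 63 arrays were above all Zhenshan 97 arrays. Over the lines it ranged between 12.821 and 13.627 with a median of 13.18, so every line had a strong signal. The lines on the Minghui 63 side of the OsEIL1b probe set had a median of 13.16 and those on the Zhenshan 97 side a median of 13.19. The dim OsEIL1a probe set had 6.796, 6.555 and 6.676 in Minghui 63 and 6.144, 6.56 and 6.481 in Zhenshan 97, which overlapped. It ranged between 5.988 and 7.071 over the lines. By median over the lines the bright OsEIL1a probe set was above 99.6% of all probe sets and the dim one above 69.4%. Levels of different probe sets are not comparable with each other.

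The 3 probe sets shared by OsEIL1a, OsEIL1b and LOC4347171 behaved alike. The brightest of them averaged 13.36 ± 0.142 in Minghui 63 and 12.74 ± 0.288 in Zhenshan 97. The dimmest averaged 4.80 ± 0.0571 in Minghui 63 and 4.37 ± 0.148 in Zhenshan 97, and the middle one averaged 11.58 in Minghui 63 and 10.93 in Zhenshan 97 (SD, n = 3 each). Across the 210 lines these 3 and the bright OsEIL1a probe set correlated with each other at between 0.756 and 0.924 (Pearson r), and with the dim OsEIL1a probe set at between −0.114 and −0.0161. With the OsEIL1b probe set the 5 probe sets correlated at between −0.111 and 0.197, and within its 2 groups at between −0.0564 and 0.402.

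**Figure D2:**
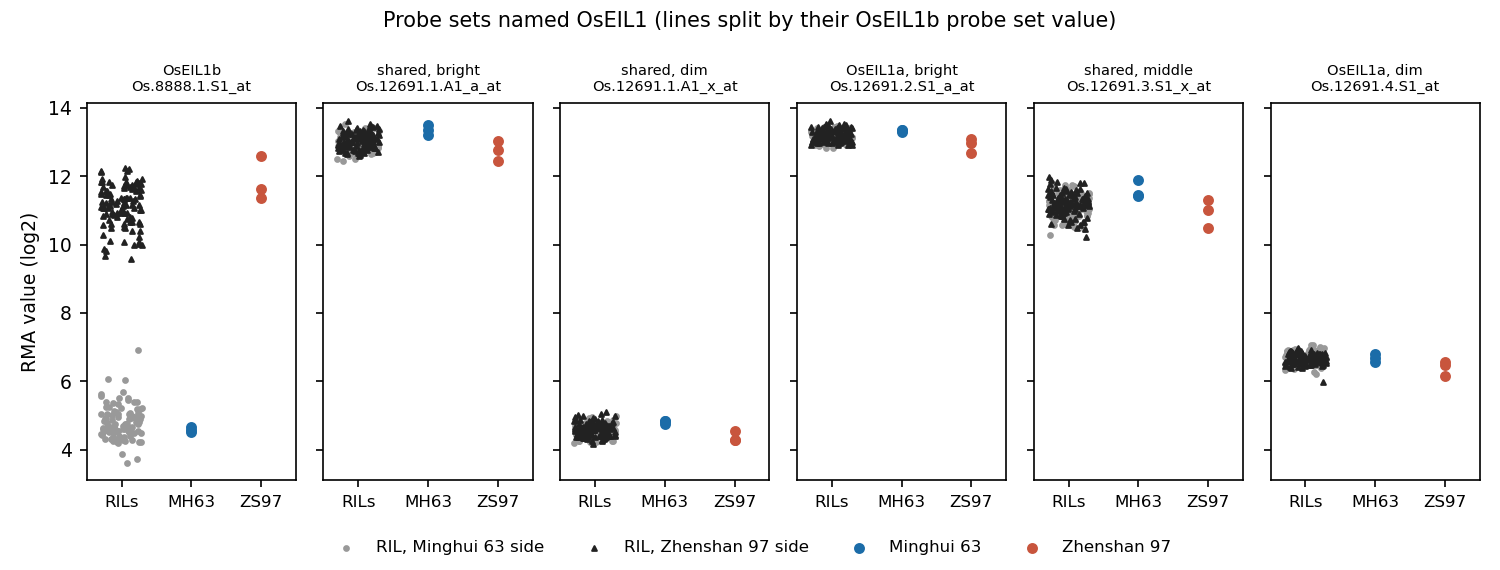
Log2 RMA values of the 6 probe sets named OsEIL1, 1 panel each, in the RILs, Minghui 63 (MH63) and Zhenshan 97 (ZS97), with the RILs marked by their side in the OsEIL1b probe set and spread sideways at random. Only the first panel has 2 separate groups of lines, and in the other 5 panels the 2 marks overlap.

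Each of the 5 probe sets put between 44.3 and 49.5% of the lines on the same side of its own parental midpoint as the OsEIL1b probe set did. The side of a line in the OsEIL1b probe set thus told little of its side in any other probe set of the name. Because the parents are close in these 5, a midpoint divides their lines far less sharply.

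The genes whose pattern was most like that of the OsEIL1b probe set lay at the end of chromosome 1, not around LOC4332697 on chromosome 3. Likeness was measured as Pearson r over the 210 lines, with 1 probe set a gene, and it is given as a description with no p. As the lines form 2 groups, this r measures mainly whether a gene separates the same lines, and r within each group is given beside it. All 10 genes with the highest r (0.75 to 0.958) and all 10 with the lowest r (−0.904 to −0.638) were on chromosome 1, between genes 4695 and 4906 of 4920.

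LOC4325244, gene 4779, was the most alike. Its probe set had 5.685, 5.964 and 5.755 in Minghui 63, against 11.073, 11.361 and 10.955 in Zhenshan 97. It had r = 0.958 with the OsEIL1b probe set (Spearman rho 0.799), and it put 98.6% of the lines, all but 3, on the same side. Within the lower group r was −0.0848 and within the higher group 0.352, so the likeness was in the side of each line and little of it in the level within a side.

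LOC4324010, gene 4837, appeared at both ends of the list. One of its probe sets had 4.857, 5.205 and 4.877 in Minghui 63, against 9.025, 8.658 and 8.832 in Zhenshan 97, with r = 0.908. The other had 10.015, 10.097 and 10.072 in Minghui 63, against 2.603, 2.843 and 2.786 in Zhenshan 97, with r = −0.904. These 2 probe sets of 1 gene put all but 8 and all but 9 lines on the same side as the OsEIL1b probe set but moved in opposite directions. LOC4324311, gene 4906, also had 1 probe set with a positive r (0.562) and 1 with a negative r (−0.653).

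The other genes with the highest r were LOC4324011 (0.906), LOC4325414 (0.904), LOC4324008 (0.904), LOC4325241 (0.904), LOC9269066 (0.897), LOC4325416 (0.876), LOC9268634 (0.847) and LOC4324294 (0.75). All were lower in Minghui 63 than in Zhenshan 97, by between −5.84 and −1.14 units, and no parental arrays of these genes overlapped. Within the lower group of lines r ranged between −0.299 and 0.119 over the 10 genes, and within the higher group between −0.131 and 0.352.

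Of the genes with the lowest r, LOC4325412 had 9.348, 9.334 and 9.35 in Minghui 63 and 4.089, 4.251 and 3.476 in Zhenshan 97, with r = −0.886. LOC4325749 had r = −0.75 and a parental difference of 2.46. Several others had a clearly negative r although the parents differed by less than 1 unit. LOC4325249, which did not have 2 clusters of lines by the same definition, had r = −0.796 with a parental difference of 0.185 units. LOC4325399, which had 2 clusters, had r = −0.751 with a difference of −0.0107. LOC4325740, or UMPS2, named for an enzyme of pyrimidine synthesis, had r = −0.64 and a difference of 0.602.

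**Figure D3:**
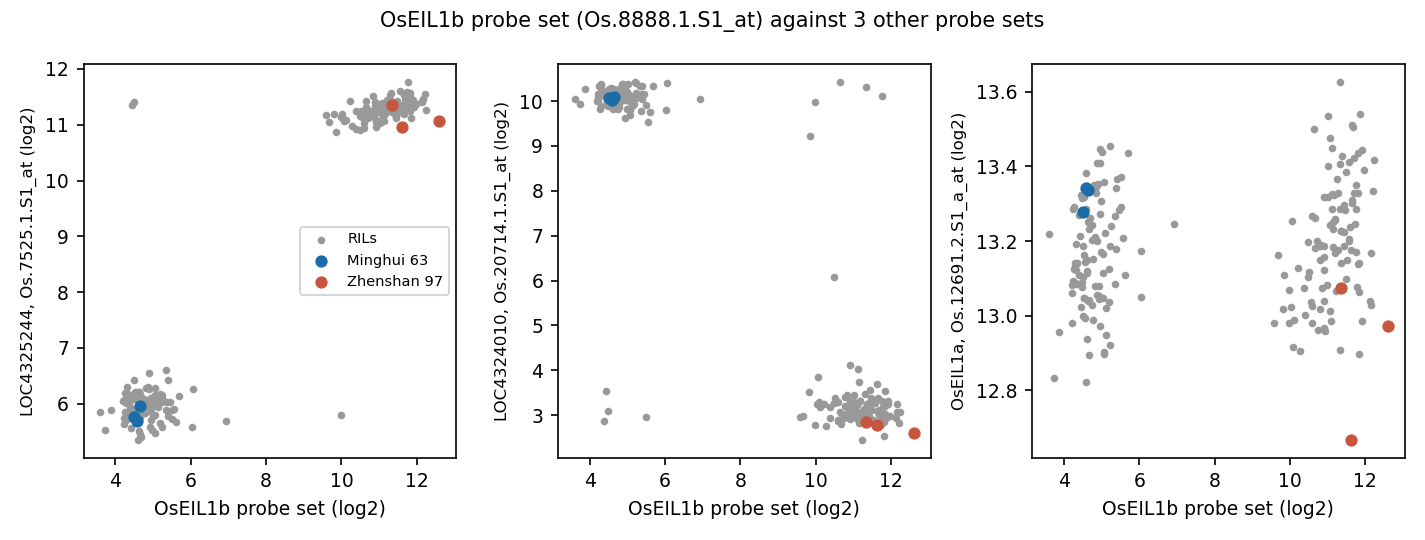
Log2 RMA value of the OsEIL1b probe set (horizontal) against the probe set of LOC4325244, the LOC4324010 probe set that is higher in Minghui 63, and the bright OsEIL1a probe set (vertical) in the 210 RILs (grey), Minghui 63 and Zhenshan 97. The first 2 panels hold 2 dense groups of lines with r of 0.958 and −0.904. In the third the 2 groups overlap over most of their range of OsEIL1a values (r = 0.172).

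Counted over all probe sets, 67 had an r of at least 0.5 in size with the OsEIL1b probe set, a limit set after the values were seen. The table names a single gene for 42 of them, from 32 genes, and the other 25 are unnamed here. All 42 were on chromosome 1, between gene 4579 and gene 4920, the last of the chromosome, with 29 positive and 13 negative. Those last 342 genes had 282 single-gene probe sets with a median r of 0.149 in size, against 0.0609 over all probe sets. None of the 18992 single-gene probe sets on other chromosomes reached 0.5, and the highest of them was 0.432.

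The chromosome 3 neighbours of LOC4332697 had no such r. Within 20 genes on either side, 34 probe sets of 27 genes had r between −0.121 and 0.224, with a median of 0.0892 in size. Among them only LOC4332680 (−2.3) and a probe set of LOC9271856 (1.15) had a parental difference of at least 1 unit. Nor did most probe sets of the distal stretch of chromosome 1 have a high r, their median being 0.149 in size. The nearest genes with a probe set of their own, apart from OsEIL1a, were LOC4332695 (r = −0.027), LOC4332694 (r = 0.0643) and LOC9271856 (3 probe sets, r = 0.128 to 0.185) on one side and LOC4332699 (r = −0.0049), LOC4332700 (r = −0.121) and LOC4332701 (r = 0.178) on the other.

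**Figure D4:**
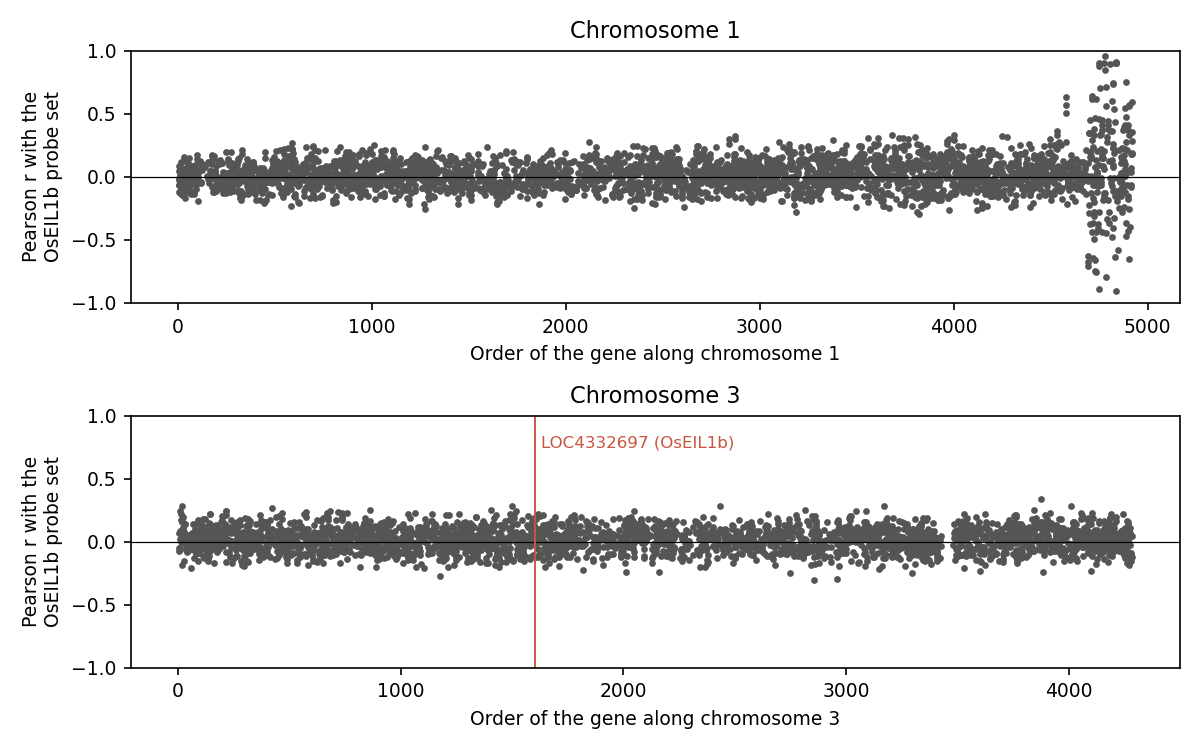
Pearson r over the 210 RILs between the OsEIL1b probe set and every single-gene probe set of chromosome 1 (top) and chromosome 3 (bottom), by order of the gene along the chromosome. Values of 0.5 or more in size are seen only from gene 4579 of chromosome 1 onwards, and the line marks LOC4332697, the gene with which the annotation pairs the OsEIL1b probe set, around which r stays between −0.121 and 0.224.

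The lines of a RIL population carry long stretches of each parent, so neighbouring genes tend to separate the same lines, and the number of lines that differ in side falls with closeness along a chromosome. Of the 42 probe sets on distal chromosome 1, 15 from 12 genes had 2 clusters of lines, by a normal mixture with at least 6 lines in each and means well apart for their spread, and a parental difference of at least 1 unit in size. The 42, of 282 single-gene probe sets in that stretch, were chosen by an r of at least 0.5 in size over these same lines. Low counts of differing lines were thus partly built in, and the counts are a description only. The number of lines on the other side than in the OsEIL1b probe set was 21 at gene 4727, 12 at gene 4748, 7 at gene 4750 and 6 at gene 4752. It was 4 at gene 4776 and 3 at gene 4779, the lowest of the 15. It was 6 at gene 4782, 8 at genes 4807 and 4834, 8 or 9 at genes 4837 and 4838, and 24 at gene 4887. The counts were thus lowest at gene 4779 and larger farther from it in gene order on both sides. The gene order is that of a RefSeq assembly, which may not be the one the array was designed on, and no markers of the lines were used here.

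**Figure D5:**
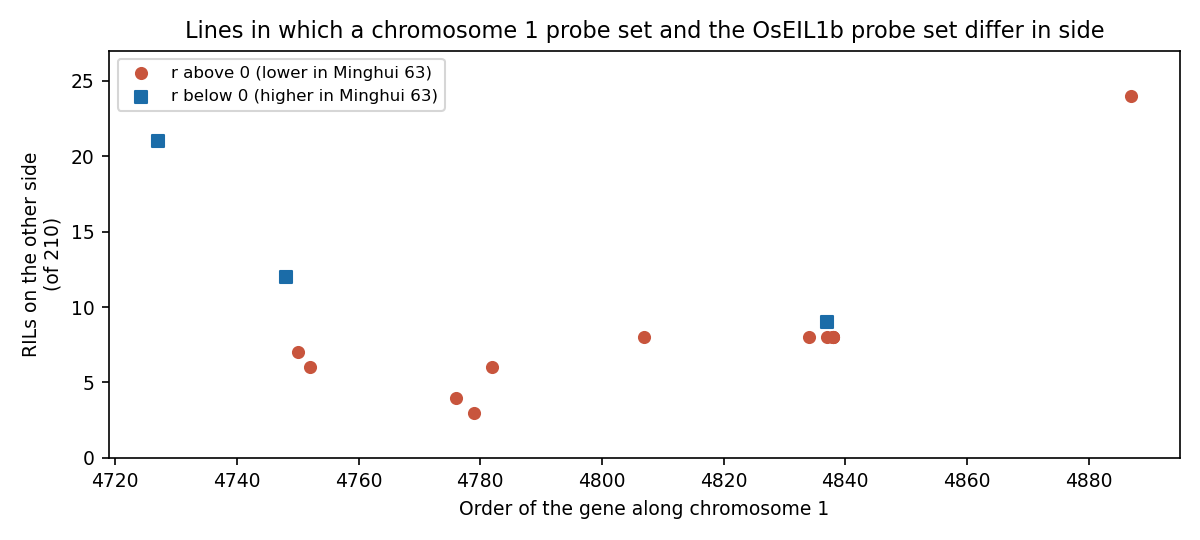
Number of the 210 RILs that a chromosome 1 probe set places on the other parental side than the OsEIL1b probe set does, by order of the gene along chromosome 1, for the 15 probe sets with 2 clusters of lines and a parental difference of at least 1 unit. Circles have a positive r and squares a negative r with the OsEIL1b probe set, and the count is lowest, 3 lines, at gene 4779. The 15 come from 42 probe sets chosen by an r of at least 0.5 in size over the same lines.

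The 3 lines that differed in side between the OsEIL1b probe set and LOC4325244 were clear cases. Line 41 had 4.49 in the OsEIL1b probe set but 11.399 in LOC4325244, and line 86 had 4.443 and 11.346. Line 150 had 9.988 in the OsEIL1b probe set but 5.803 in LOC4325244. By the 10 most alike genes these lines were on the other side in 8, 7 and 8 genes. Of all lines, 33 had between 1 and 9 on the other side, 0 had all 10 there, and in the rest all 10 were on its side. The 5 lines of the lower group that were over 1 unit above the Minghui 63 mean (5.612 to 6.926) had 5.576 to 6.272 in LOC4325244, which is the Minghui 63 side.

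Set against its label, the OsEIL1b probe set was unlike the other probe sets of the name and the genes beside LOC4332697, and like genes of distal chromosome 1. Where its probes hybridise in Minghui 63 and Zhenshan 97 was not tested. The values below are therefore given as those of the probe set and not as the level of OsEIL1.

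A regression of every other probe set on the OsEIL1b probe set over the 210 lines asked which transcripts moved with it. The 6 probe sets of the name were left out. Of 57252 probe sets 513 had a slope past an adjusted p of 0.05 (limma, Benjamini-Hochberg), or 0.896%. The slope was positive for 0.638% and negative for 0.259% of the probe sets tested. Most slopes were small: 392 of the 513 were under 0.05 units per unit of the OsEIL1b probe set in size and 52 were 0.1 or more. Of these 52, 30 have a single gene in the table and 29 of those were on chromosome 1. On chromosome 1 4.88% of 3441 single-gene probe sets were called, against 0.562 to 1.10% on each of the other 11 chromosomes, and 25 of 3006 (0.832%) on chromosome 3. On chromosome 1 itself, 36.5% of the 282 in the distal stretch were called, a stretch chosen by r in the same lines, and 65 of the other 3159 (2.06%).

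Of 14 symbols of ethylene synthesis 3 were measured, the ACC synthases OsACS1 and OsACS2 and the ACC oxidase OsACO1, enzymes of the last steps from S-adenosylmethionine to ethylene. None passed, where 0.896% of all probe sets did, 1 was under an unadjusted p of 0.05, where 12.7% of all probe sets were, and their r lay between −0.118 and 0.139. OsACS2 had the largest slope, 0.0262 ± 0.0129 (SE, limma adjusted p = 0.371). On ranks 2 of the 3 passed, OsACS1 with a Spearman rho of −0.198 and OsACS2 with 0.213. In that fit 4.79% of all probe sets passed with a positive and 3.59% with a negative slope. With the group of lines as a term 2 of the 3 passed, beside 28.4% of all probe sets.

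Of 16 symbols of ethylene perception and signalling 6 were measured, the receptors OsERS1, OsERS2, OsETR2, OsETR3 and OsETR4 and OsEIN2. None passed and 0 were under an unadjusted p of 0.05, beside 0.896% and 12.7% of all probe sets, and r lay between −0.0703 and 0.122. OsEIN2, which acts between the receptors and the EIN3-like factors, had a slope of 0.00553 ± 0.00315 (SE, limma adjusted p = 0.462). OsERS1 had a slope of 0.00306 ± 0.00326 (SE, limma adjusted p = 0.742). Of the EIN3-like family no gene other than the OsEIL1 pair was matched.

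Of 16 symbols of ethylene targets and responses 7 were measured and 1 passed, beside 0.896% of all probe sets, OsJAmyb, a MYB factor named for its response to jasmonate. OsJAmyb ranged between 4.162 and 6.423 over the lines with a median of 5.426, just above the highest array median of the RILs, 5.321. Its slope was 0.0226 ± 0.00617 (SE, limma adjusted p = 0.041). Its r was 0.245 over all lines, 0.115 within the lower group and 0.279 within the higher group. The call was lost with the first 5 principal components of the lines as covariates (adjusted p = 0.298), with blocks of consecutive lines (0.0755) and on leaving out the 2 lines with the most extreme values (0.061). The other 6 genes, among them the gibberellin enzyme OsGA20ox2 and the oxophytodienoate reductase OsOPR4, a family that includes enzymes of jasmonate synthesis, had r between −0.0519 and 0.172. The median slope was −0.0002 for synthesis, 0.00306 for signalling and 0.008 for targets, beside −0.000883 over all probe sets tested.

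Between the parents 3042 of 57252 probe sets passed (5.31%, limma adjusted p under 0.05), 1637 (2.86%) higher and 1405 (2.45%) lower in Minghui 63. Of the ethylene genes, 0 of 3 for synthesis, 0 of 6 for signalling and 2 of 7 for targets passed, both lower in Minghui 63. Of the genes that did not pass, OsACS2 of synthesis, OsERS2 of signalling and OsJAmyb of the targets were under an unadjusted p of 0.05, and OsJAmyb had a difference of 0.461 (limma adjusted p = 0.254). OsGA20ox2 had 7.869, 7.545 and 7.673 in Minghui 63 and 8.972, 9.173 and 9.645 in Zhenshan 97, a difference of −1.57 ± 0.212 (SE, limma adjusted p = 0.00383). OsOPR4 had 6.559, 6.359 and 6.252 in Minghui 63 and 8.578, 7.671 and 7.436 in Zhenshan 97, a difference of −1.5 ± 0.289 (SE, limma adjusted p = 0.0215). Neither gene's arrays overlapped between the parents. The call of OsOPR4 was lost without Minghui 63 replicate 1, 2 or 3 (adjusted p = 0.0719, 0.0526 and 0.0645). Neither gene passed over the lines, where OsGA20ox2 had r = 0.0548 and OsOPR4 r = 0.0471 with the OsEIL1b probe set.

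Within the 2 groups of lines the picture was another one. With the group as a term, 16254 of 57252 probe sets passed (28.4%, limma adjusted p under 0.05), 6935 (12.1%) with a positive and 9319 (16.3%) with a negative slope, and 286 of them were among the 513. Fitted within the higher group only, 13931 passed (24.3%), and within the lower group only, 1026 (1.79%). The first principal component of all probe sets over the lines, which held 9.39% of their variance, shared an r squared of 0.38 with the OsEIL1b probe set within the higher group, 0.104 within the lower group and 0.0219 over all lines. With the first 5 components and the group as terms 2605 passed. The differences in level within the higher group thus moved in part with variation that many probe sets shared.

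The genes with the highest mean of the 2 within-group r were spread over the genome, on chromosomes 10, 3, 1, 2 and 1. LOC4348633 led with r = 0.525 within the lower and 0.726 within the higher group, followed by LOC4333213 (0.523 and 0.697) and LOC4324605 (0.43 and 0.779). LOC4329920, or Cht6, a chitinase, had 0.416 and 0.789, and LOC4324397 had 0.425 and 0.776. These 5 genes had r between 0.0638 and 0.188 over all lines. The lowest were LOC4337056 (−0.344 and −0.661), the kinesin KIN4A (−0.349 and −0.656), LOC4340391 (−0.395 and −0.598), LOC4332900 (−0.334 and −0.654) and LOC4337711 (−0.347 and −0.637).

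Within the groups 2 of 3 synthesis genes, 2 of 6 signalling genes and 3 of 7 target genes passed, to be read against the 28.4% of all probe sets. OsACS2 had a slope of 0.393 ± 0.0712 (SE, limma adjusted p = 2.61e-06) and the receptor OsETR2 a slope of 0.246 ± 0.0462 (SE, limma adjusted p = 5.76e-06). The others with a positive slope were OsETR3 (0.0976), OsOPR4 (0.215) and OsJAmyb (0.106). OsACS1 (−0.0631) and OsEREBP1 (−0.049), an AP2/ERF factor, had a negative slope. With the first 5 components as covariates beside the group, 0 of the synthesis, 0 of the signalling and 1 of the target genes passed. In that fit 2.14% of all probe sets passed with a positive and 2.41% with a negative slope.

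The tissue label was checked with marker lists. The 3 mesophyll probe sets measured, 2 of chlorophyll a/b-binding proteins and 1 of glycolate oxidase, had medians of 13.84 to 14.13 over the lines. Of the root markers, 2 of the 3 measured were at 3.009 and 3.626, and the silicon transporter Lsi1 was at 9.25. The 5 panicle MADS-box genes had medians of 3.005 to 8.625, and the 4 genes of senescing leaves 8.479 to 10.29. None of these 15 genes had a slope on the OsEIL1b probe set past the threshold, where 0.896% of all probe sets did, and 4 passed within the groups, where 28.4% did. Between the parents SGR (−1.71), Osl2 (−1.19) and NYC1 (−0.726) of the senescence genes, OsMADS1 (−2.97) and Lsi1 (−1.65) were lower in Minghui 63, and OsMADS3 (1.12) and OsMADS16 (1.09) were higher (limma adjusted p 0.00546 to 0.0384), where 2.45% and 2.86% of all probe sets were. The fourth senescence gene, NOL, had a difference of −0.324 (limma adjusted p = 0.591), and no mesophyll gene passed. Their part in the parental differences of other genes was not tested.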

How the data were processed

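Expression was measured with the Affymetrix rice array in 216 samples. The deposited values are log2 values of each probe set that the authors obtained with RMA in the affy package, per the submitters' processing notes. Versions are not stated there. They were not renormalized. The number of arrays limits the precision, and 123 control probe sets were left out. Probe sets were named from GEO's platform annotation, updated through a RefSeq gene table (22436 with 1 gene, 95 with several, 34727 not named). Gene order came from that table and no coordinates were used.

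Slopes over the RILs and Minghui 63 minus Zhenshan 97 were tested with limma 3.58.1 in R 4.3.3 (lmFit, eBayes with trend, Benjamini-Hochberg, threshold 0.05). Clusters were described with mclust 6.1.1 (lower BIC, at least 6 lines each, Ashman D over 2). Both were tested on simulated data. Where a gene had more than 1 probe set, lists used the brightest and rankings the most alike. Genes named were all OsEIL1 probe sets, the 10 highest and 10 lowest by r, the 5 highest and lowest within clusters, up to 3 neighbours on each side, and the list members that passed. The probe set, the lists and the rules were chosen with earlier results of these data known. The limits on r, gap and parental difference, the neighbour window, the chromosome counts and the lines listed singly were chosen after values were seen.

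The alternatives were other measures of nearness, other normalization, clusters, components, line blocks, ranks and another OsEIL1 probe set as terms, filters on dim probe sets, and leaving out replicates.

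The labels do not say what the parental replicate numbers mark, and a check of residuals could not decide whether they pair the samples. The main parental fit treated the arrays as unpaired.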

Additional observations from a re-analysis of the deposited data

How the results depend on the processing

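The share of lines on the Minghui 63 side stayed at 49.5% under quantile normalization, median centring, the point of equal density, equal variances and leaving out each parental replicate. Within 0.5 units of the Minghui 63 mean it was 37.1%, and by the other probe sets that moved it most 65.2% (bright OsEIL1a), 80.95% (dim OsEIL1a) and 39.05% (middle shared). Leaving out a replicate put 28.1 to 43.3% of the lines within 1 unit of the Zhenshan 97 mean. The 513 slopes called (0.638% of probe sets positive, 0.259% negative) became 16254 with the cluster as a term (12.1 and 16.3%), 312 with 5 principal components (0.278% positive), 4798 on ranks (4.79 and 3.59%) and 30037 with the bright OsEIL1a probe set as regressor (19.9 and 32.5%). Chosen after seeing the data, the higher cluster gave 13931 (10.9 and 13.4%), the lower cluster 1026 (1.25 and 0.545%), and cluster with components 2605 (2.14 and 2.41%). The cause of these shifts was not tested.

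In the same fits the synthesis genes called were 2 with the cluster as a term, 2 on ranks, 3 with the OsEIL1a regressor, 2 in the higher and 1 in the lower cluster. For signalling they were 2 with the cluster, 4 with the OsEIL1a regressor, 1 in the higher and 1 in the lower cluster. For targets they were 3 with the cluster, 3 with the OsEIL1a regressor, 2 on ranks, 2 in the higher and 0 in the lower cluster, and 0 with components, line blocks, the filter on dim probe sets (which leaves OsJAmyb out) or without 2 lines. The slope of OsJAmyb turned to −0.0427 (adjusted p = 0.602) with cluster and components. Under Spearman correlation, quantile normalization or removal of components all 20 probe sets most alike kept the sign of r. Its size moved in 19 of 80 comparisons, which include leaving out 2 lines. Most of these were under Spearman correlation, as for LOC4324011 with r = 0.906 and rho = 0.669.

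Between the parents the replicate block gave 2307 calls against 3042 and changed no ethylene list count. Residuals of same-numbered arrays correlated at −0.202, −0.26 and −0.0707, and those of differently numbered arrays at between −0.134 and 0.23. With 3 arrays of each parent these values cannot decide whether the numbers pair the samples. Leaving out a replicate gave 1544 to 3413 calls (1.47 to 2.73% higher, 1.22 to 3.23% lower in Minghui 63) and 1 to 2 target genes. Without Minghui 63 replicate 1 the count was 1544, without Zhenshan 97 replicate 1 it was 1947, and without Zhenshan 97 replicate 3 it was 1848. The files give no background level, so the order of low values, among them those of the lower group, has no measured error.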

Other observations

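Among the 25 unnamed probe sets with r of at least 0.5 in size, several followed the OsEIL1b probe set as closely as the named genes did. The highest had r = 0.911 and the lowest r = −0.888. Their genes are not given in the annotation used here.

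Of the 32 genes with such an r, 8 had more than 1 probe set past the limit. In 6 of these 8 the probe sets moved in the same direction, among them LOC4324011 with 3 positive and LOC4325755 with 3 negative. In LOC4324010 and LOC4324311 they moved in opposite directions.

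OsEIL1a, as read by its bright probe set, had a narrow range over the lines, 12.821 to 13.627, yet 30037 of 57252 probe sets had a slope on it past the same limma threshold. That fit had no principal components or other term for variation that many probe sets share. Whether these probe sets are tied to OsEIL1a in particular was not tested, nor was the cause of the count.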
